A study of Rattus norvegicus with 8 samples.

Results

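Kidney transcripts of 6 genes of the renin-angiotensin system (Agt, Ace, Agtr1a, Mme, Enpep and Atp6ap2) were compared between rats given colistin and rats given saline. The members were taken by name from this hormone system, as every non-control probe whose RefSeq accession belongs to one of them. This gave 7 probes of 30367, with 2 for Ace and 1 for each other gene, and all 6 genes were among the 12411 tested. The colistin group held 4 kidney samples taken at day 28 after 30 mg/kg colistin, a polymyxin antibiotic known for tubular injury, and the saline group held 4 taken at day 28 after saline. All 8 came from male rats given as 10 weeks old. No strain or allele is named. The tissue label is kidney, whereas tubules appear in the study title, and the numbered samples are not stated to come from separate animals. The p-values therefore measure the spread between these samples, which may be partly technical. Each sample was hybridised with Cy3 on 1 Agilent array, and precision is limited by having 4 arrays in a group. The arrays lay on 3 slides, each holding both groups: colistin array 2 with saline arrays 1 and 4 on slide 1, colistin array 3 with saline array 2 on slide 2, and colistin arrays 1 and 4 with saline array 3 on slide 3.

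In the renin-angiotensin system, angiotensinogen, encoded by Agt, is cut to angiotensin I, which angiotensin-converting enzyme, encoded by Ace, trims to angiotensin II. Angiotensin II acts mainly on the type 1 receptor, whose principal gene in rodents is Agtr1a, to constrict vessels and retain sodium. The peptidases neprilysin (Mme) and aminopeptidase A (Enpep) cut angiotensin peptides further. In the kidney these peptidases lie largely on the brush border of proximal tubule cells.

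None of the 6 genes passed the test across all genes, and they did not move in one direction. Agtr1a was the only member whose colistin values all lay below its saline values, as they did in 11.7% of all genes tested. In either direction 18.6% of all genes did not overlap, so 1 of 6 is near that background. The estimates for Agt, Ace and Mme were positive but lay within wide spreads, and those for Enpep and Atp6ap2 were near 0. Over all genes 2.00% passed (limma, Benjamini-Hochberg adjusted p under 0.05), with 1.46% higher and 0.540% lower after colistin, so a count of 0 among 6 is not far from that background. At an unadjusted p under 0.05, Agtr1a alone of the 6 would be counted, against 22.7% of all genes. Of the 6 estimates 3 were positive and 3 negative, with a median log2 fold change of 0.58, beside -0.14 over all genes tested.

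The values below are log2 of the processed spot signal relative to the 75th percentile of its array, so 0 marks that percentile and each unit is a doubling. The probes of all 6 genes used here were well above background on all 8 arrays. A level on this scale belongs to its own probe and is not compared between genes. The scaling matters here, because colistin arrays were brighter. Their 75th percentile of processed signal was 271 to 317, against 156 to 197 on saline arrays, and without any scaling the median over all genes tested became 0.64 in log2. In bulk tissue, fewer cells that make a transcript and less of it per cell cannot be told apart.

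**Figure D1:**
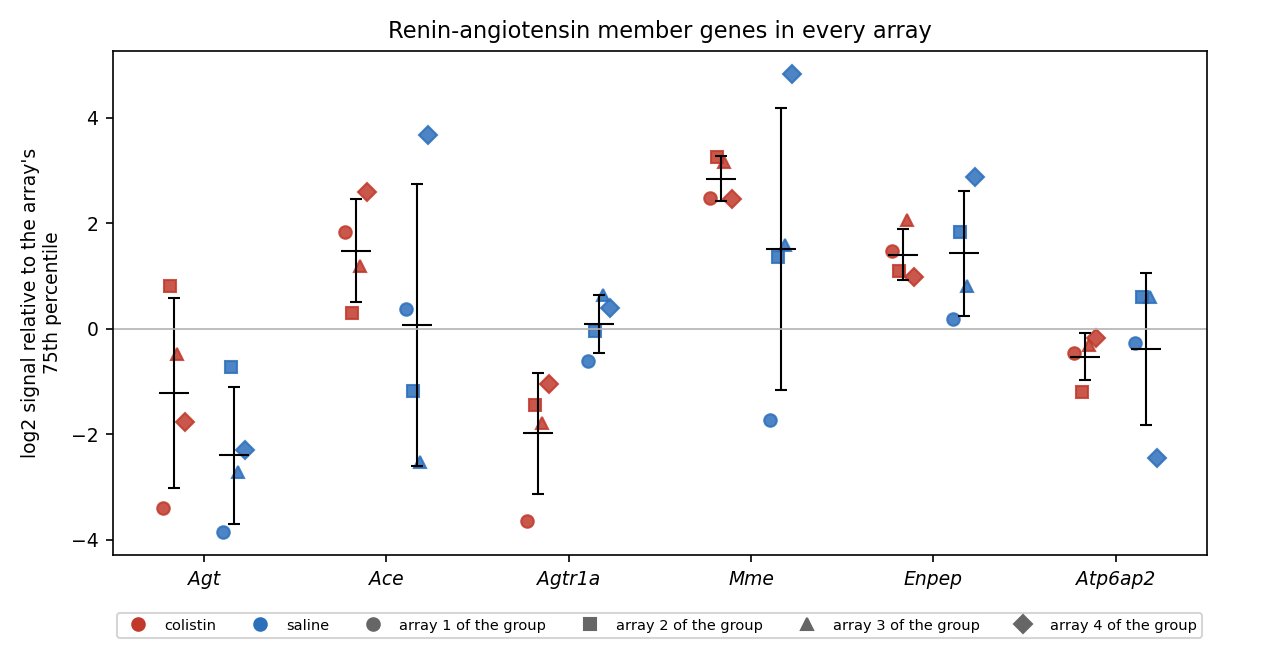
Each point is 1 array, colistin left of saline for each gene, on a log2 axis relative to the array's 75th percentile; bars show mean and SD of 4 arrays. Agtr1a is the only one of the 6 without overlap between the groups, against 18.6% of all genes tested. The saline values of Mme and Ace span 6.55 and 6.20 log2 units.

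Agtr1a, the receptor gene, had log2 values of -3.65, -1.45, -1.78 and -1.04 on colistin arrays 1 to 4, against -0.62, -0.05, 0.63 and 0.39 on saline arrays 1 to 4. All 4 colistin values lay below all saline values, and colistin array 1 lay far below the rest. The mean was -1.98 ± 1.15 after colistin and 0.09 ± 0.55 after saline (SD, n = 4 each). The log2 fold change was -2.07 ± 0.60 (SE), a 4.19-fold lower estimate with a 95% interval from 1.62-fold to 10.9-fold lower, and it did not pass over all genes (limma adjusted p = 0.12). Without overlap between the groups, lower after colistin, stood 11.7% of all genes tested, so this separation was common on these arrays. The probe is printed 10 times on each array, and the SD of log2 signal over its copies was 0.0582 to 0.0892, far below the SD between samples of either group. Without colistin array 1 the log2 fold change was -1.51 (adjusted p = 0.186). Within slides 1, 2 and 3 the difference was -1.34, -1.73 and -2.97, lower after colistin on each, and with the slide as a block the adjusted p was 0.245.

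Agtr1a passed in 1 of the 19 alternatives, which started from the median spot signal with normexp background correction in place of the detrended processed signal. There its log2 fold change was -1.41 ± 0.33 and it passed (adjusted p = 0.0323), but so did 21.7% of all genes in the lower direction. Over all genes that setting called 689 higher and 2688 lower, where the reported setting called 181 higher and 67 lower. With no scaling between arrays 1002 were higher and 38 lower, and Agtr1a was at -1.29 (adjusted p = 0.225). As unscaled processed signal, Agtr1a read 24.4, 112, 79.0 and 154 on colistin arrays, against 102, 185, 303 and 205 on saline arrays. On that scale colistin arrays 2 and 4 overlapped saline array 1.

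The promoter window of Agtr1a, the one member whose groups did not overlap, is given from RefSeq on the assembly GRCr8 at chr17:34435383-34435682, minus strand. It runs 5′ to 3′ from 250 bases before the annotated start to 50 bases after it, with the motif TATAAA in capitals.
Agtr1a: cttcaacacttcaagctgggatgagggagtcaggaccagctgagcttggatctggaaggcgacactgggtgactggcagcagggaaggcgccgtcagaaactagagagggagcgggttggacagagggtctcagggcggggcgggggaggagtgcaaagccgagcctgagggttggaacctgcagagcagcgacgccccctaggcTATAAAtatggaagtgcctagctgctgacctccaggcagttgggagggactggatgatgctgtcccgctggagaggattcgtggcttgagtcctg

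TATAAA lay from 45 to 40 bases before that start, on the gene's own strand. Searched on both strands, it was found in 14.2% of 33469 promoter windows of the same length, and on the gene's own strand in 8.8%. Of the 5 members with a window in the table, Agtr1a held it on the gene strand and Ace on the opposite strand. A match describes letters in the window and nothing about a factor bound there.

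Agt, the gene of the angiotensin precursor, had log2 values of -3.40, 0.81, -0.48 and -1.76 on colistin arrays, against -3.85, -0.72, -2.71 and -2.30 on saline arrays. Colistin arrays 2 and 3 lay above all saline values, and colistin array 1 lay among the saline values. The log2 fold change was 1.19 ± 0.98 (adjusted p = 0.482), with a 95% interval from -1.07 to 3.44. Agt was among the more variable genes after colistin, with an SD of 1.80 that was at or above that of 92.1% of genes, against an SD of 1.29 after saline. Within slides 1, 2 and 3, which each held both groups, the colistin minus saline difference was 3.89, 0.24 and 0.12. Leaving out 1 array at a time gave 0.51 (without colistin array 2) to 1.92 (without colistin array 1). With normexp the value was 0.51.

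Ace, which encodes the converting enzyme, had log2 values of 1.84, 0.30, 1.18 and 2.59 on colistin arrays, against 0.37, -1.18, -2.53 and 3.67 on saline arrays. Saline array 4 held the highest value and saline array 3 the lowest, so the colistin values lay inside the saline range. The log2 fold change was 1.40 ± 1.24 (adjusted p = 0.51), with a 95% interval from -1.45 to 4.25. The saline values covered a 73.8-fold range, against 4.88-fold among colistin values. Without saline array 4 the estimate was 2.60 (adjusted p = 0.142), and without saline array 3 it was 0.53 (adjusted p = 0.802). Without saline arrays 1 and 4 together it was 3.34 (adjusted p = 0.106).

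The other Ace probe was dim, being well above background on 3 of 4 colistin and 2 of 4 saline arrays. Its log2 values were -4.42, -6.13, -3.29 and -2.92 on colistin arrays and -5.28, -2.47, -5.27 and -4.79 on saline arrays. In a fit over 23710 probes its log2 fold change was 0.26 ± 0.88 (adjusted p = 0.873). On saline array 2 this probe had its highest value while the brighter one was low, and on saline array 4 the brighter probe had its highest value while this one was low. With both probes averaged, the log2 fold change of Ace was 0.83 (adjusted p = 0.554). Within slides the brighter probe gave -1.71, 2.36 and 4.75, so the sign differed between slides.

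Mme, the gene of neprilysin, had log2 values of 2.48, 3.26, 3.16 and 2.45 on colistin arrays, against -1.72, 1.35, 1.58 and 4.83 on saline arrays. The colistin values were close together, and saline arrays 1 and 4 bracketed them far below and far above. The spread after saline, at 93.5-fold from lowest to highest, was among the largest of all genes, with an SD of 2.67 at or above that of 94.9% of genes. After colistin the range was 1.76-fold and the SD was 0.43. The log2 fold change was 1.33 ± 1.19 (adjusted p = 0.514), with a 95% interval from -1.40 to 4.05. It was 0.25 without saline array 1 (adjusted p = 0.89) and 2.43 without saline array 4 (adjusted p = 0.163). Within slides 1, 2 and 3 the difference was 1.71, 1.81 and 0.89.

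Enpep, the gene of aminopeptidase A, had log2 values of 1.47, 1.10, 2.05 and 0.98 on colistin arrays, against 0.19, 1.84, 0.80 and 2.88 on saline arrays. The colistin values lay inside the saline range, with saline array 1 lowest and saline array 4 highest, as for Mme. The log2 fold change was -0.03 ± 0.60 (adjusted p = 0.983). Its 95% interval ran from -1.40 to 1.35, so a change of more than 2-fold in either direction stays within it. Within slides the difference was -0.44, 0.21 and 0.43, and over the 19 alternatives to the reported setting the sign turned in 9.

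Atp6ap2, the gene of the prorenin receptor and an accessory protein of the proton-pumping vacuolar ATPase, had log2 values of -0.46, -1.19, -0.30 and -0.18 on colistin arrays. On saline arrays they were -0.27, 0.60, 0.61 and -2.45. Saline array 4, the highest for Mme, Ace and Enpep, was the lowest here. The log2 fold change was -0.15 ± 0.69 (adjusted p = 0.909), with a 95% interval from -1.74 to 1.44. Without saline array 4 it was -0.84 (adjusted p = 0.26), and within slides the difference was 0.17, -0.90 and -0.93.

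The 6 members were compared with each other through the difference of their log2 values within each array, in which any scaling of the array cancels. The largest shifts between the groups paired Agtr1a with Agt, Ace or Mme. The Agt minus Agtr1a difference averaged 0.77 on colistin arrays and -2.48 on saline arrays, a shift of 3.25 (p = 0.0571, exact two-sided permutation test). For Ace minus Agtr1a the means were 3.46 on colistin arrays and -0.01 on saline arrays, a shift of 3.47 (exact p = 0.0857). For Agtr1a minus Mme they were -4.82 and -1.42 on colistin and saline arrays, a shift of -3.39 (exact p = 0.0571). In all 15 pairs were tested, each over 70 arrangements with 0.0286 as the smallest p possible, and 0 passed. After adjustment over 15 pairs a single pair at that smallest p could not pass. The count of 0 therefore decides nothing about a single pair. The smallest p adjusted over the 15 pairs was 0.257. The Ace minus Mme difference averaged -1.36 on colistin arrays and -1.43 on saline arrays (exact p = 0.971).

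**Figure D2:**
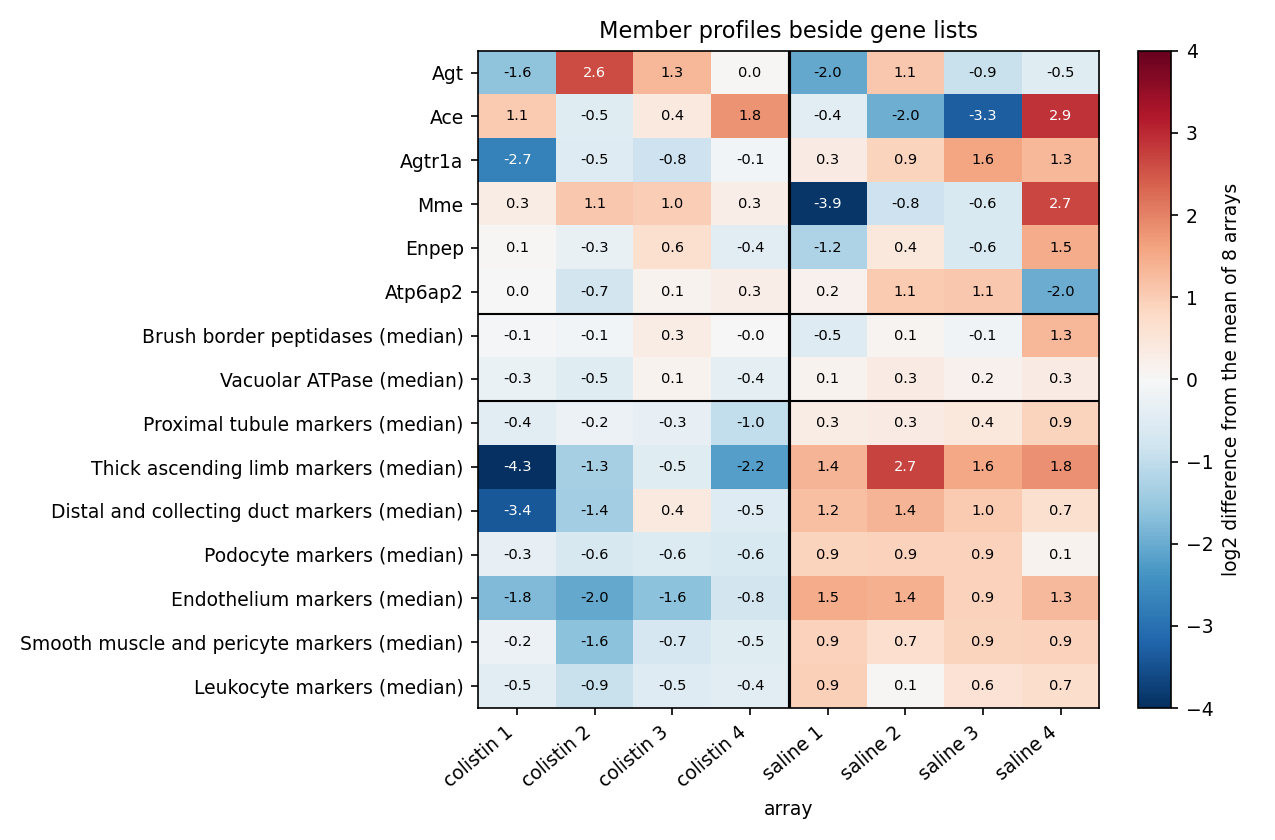
Each cell gives the log2 difference of 1 array from the mean of the 8 arrays, for the members (top), for 2 gene lists (middle) and for cell type marker lists (bottom, medians), with colistin arrays left. Mme is lowest on saline array 1 at -3.89 and highest on saline array 4 at 2.66. Among the saline arrays the proximal tubule marker median is also lowest on array 1, at 0.29, and highest on array 4, at 0.88. The brush border peptidase median, whose list includes Mme, has the same lowest and highest saline arrays, at -0.51 and 1.33.

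For Ace, Mme, Enpep and Atp6ap2 the saline SD exceeded the colistin SD, as it did for 67.2% of all genes tested, and for Agt and Agtr1a it did not. The median SD over all genes was 0.59 after colistin and 0.84 after saline. Saline array 4 was the highest saline array in 31.8% of all genes and saline array 1 the lowest in 22.3%. Among the other 9 brush border peptidase genes tested, saline array 4 was highest in 6 and saline array 1 lowest in 4. Among 12 proximal tubule markers these counts were 8 and 5.

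All 12 proximal tubule markers were well above background on all 8 arrays, as in kidney tissue. Marker levels of several cell types moved with the groups. Over all genes tested, 0.540% were called lower and 6815 of 12411 had negative estimates. Of 9 endothelial markers all had negative estimates and 4 fell, with a summed level of 4.98 to 8.16 on colistin arrays and 38.1 to 58.7 on saline arrays, in units of the array's 75th percentile. The 8 markers of smooth muscle and pericytes were all negative and 1 fell, with sums of 0.939 to 2.51 after colistin and 4.46 to 6.93 after saline. Of 6 podocyte markers 5 were negative and 1 fell (1.52 to 2.39 after colistin, 5.01 to 17.7 after saline). Of the proximal tubule markers 9 were negative and 2 fell (347 to 585 after colistin, 879 to 1338 after saline). Every marker of these 4 lists was well above background on at least 1 array. Thick ascending limb (5 tested), distal and collecting duct (9) and leukocyte (5) markers were likewise all negative, with 1 fall each. Their sums were 0.914 to 5.20, 2.11 to 34.5 and 1.19 to 2.56 on colistin arrays, in that order of lists, and 31.8 to 70.4, 52.6 to 90.7 and 3.64 to 4.17 on saline arrays. The leukocyte marker Itgam was above background on no array. Of 4 markers of the adrenal cortex, which is not a kidney tissue, 2 were tested and 0 called. Both had negative estimates, with sums of 0.1758 to 0.2147 on colistin arrays and 0.2265 to 0.3681 on saline arrays. Their median log2 fold change was -0.58, where the medians of the other marker lists ran from -0.96 (proximal tubule) to -3.52 (thick ascending limb). With 2 dim genes this list is too small for a comparison with the kidney lists. The 75th percentile that serves as the unit of these sums was itself higher on colistin arrays. Its part in the lower sums was not tested. The lower values of Agtr1a stood beside these lower marker levels, and the part of the marker levels in the result was not tested.

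Across the wider pathway, a list of 24 genes of angiotensin formation, breakdown and reception was read, chosen with earlier results of these data known. Of these, 17 were tested and 0 passed (limma), while 2 were under an unadjusted p of 0.05, both lower after colistin. Of the other 7, 6 did not pass the filter on dim probes and 1, Lnpep, had no matched probe. The median log2 fold change was -0.03, beside -0.14 over all genes tested, and it was 0.32 without saline array 4 and -0.17 without colistin array 3. The groups did not overlap in 3 of the 17, against 18.6% of all genes.

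**Figure D3:**
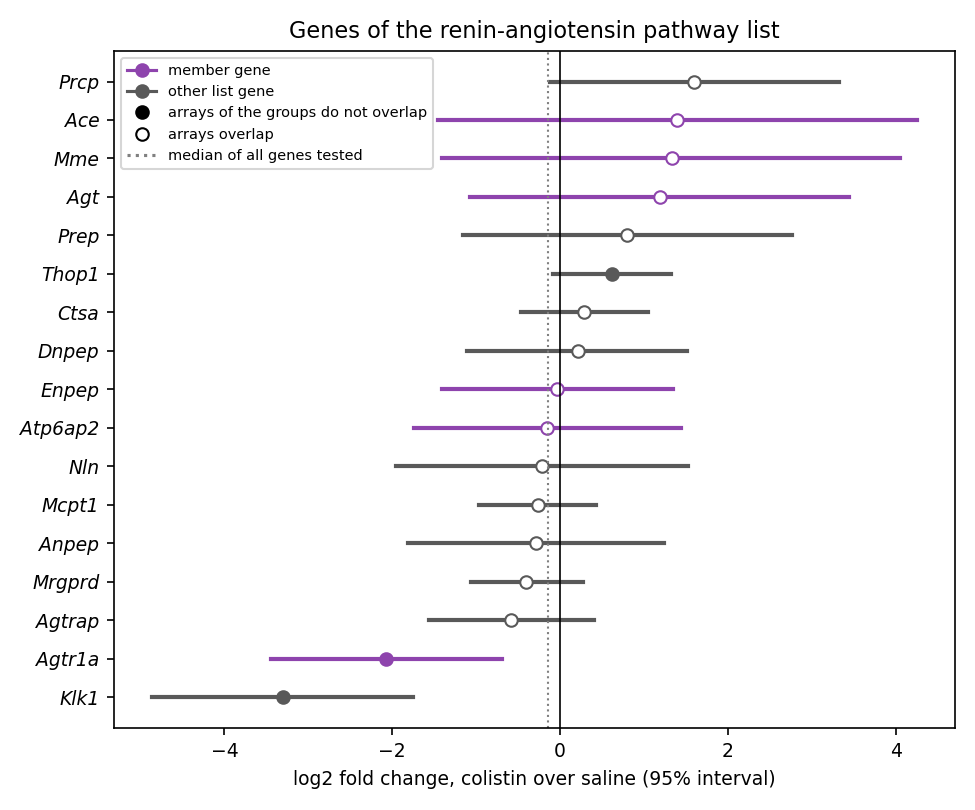
Points give the log2 fold change of colistin over saline for the 17 tested genes of the pathway list, and lines give the 95% interval from limma; filled points mark genes whose arrays do not overlap between groups. Klk1 and Agtr1a have intervals below 0 at an unadjusted level, and 0 of the 17 pass over all genes.

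Those 3 genes were Agtr1a, Klk1 and Thop1, the last 2 named after their values were seen. Klk1, which encodes tissue kallikrein of the kinin pathway, had log2 values of 0.86, 2.07, 4.16 and 3.39 on colistin arrays and 5.87, 5.99, 5.63 and 6.20 on saline arrays. It had the largest estimate of the list, at -3.30 ± 0.68, and missed the threshold narrowly (adjusted p = 0.054). With 1 array left out it passed without colistin array 3 (adjusted p = 0.0466) and did not in the other 7 cases (adjusted p from 0.0771 to 0.134). The adjusted p was 0.14 with the slide as a block and 0.184 without saline arrays 1 and 4. Klk1 passed with the array median as scale (adjusted p = 0.048) and over probes bright on all 8 arrays (adjusted p = 0.0436). With normexp, where 21.7% of all genes were called lower, it also passed (adjusted p = 0.0309). Klk1 has near-identical relatives in the rat, so its probe's target is uncertain. Thop1, the gene of thimet oligopeptidase, which can form angiotensin 1-7, gave 0.62 ± 0.30 (adjusted p = 0.261), and with no scaling it passed at 1.40 (adjusted p = 0.0327).

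The other genes of the list that were read by name gave no call. Anpep, the gene of aminopeptidase N, gave -0.28 ± 0.66 (adjusted p = 0.818). Agtrap, which encodes a protein that binds the type 1 receptor and promotes its internalisation, gave -0.58 ± 0.43 (adjusted p = 0.432).

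Agtr2, Agtr1b and Mas1, which encode 3 other receptors, were mostly not well above background. Agtr2, the type 2 receptor gene, was well above background on 0 of 8 arrays. Agtr1b, the second type 1 receptor gene of rodents, was well above background on 1 of 4 colistin and 0 of 4 saline arrays, and Mas1, the gene of a receptor for angiotensin 1-7, on 1 of 4 arrays in each group. No fold is given for these 3. Agtr1a and Agtr1b are close paralogs, so some cross-hybridisation between their probes is possible, and was not tested.

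No gene passed in the 4 related lists either. Of all genes tested, 6815 of 12411 had negative estimates, 22.7% were under an unadjusted p of 0.05 and 18.6% did not overlap between the groups, and the counts in these lists are read against those shares. Of 6 tested kinin genes 0 passed, 5 had negative estimates, 3 were under an unadjusted p of 0.05 and 2 did not overlap between the groups. Kinins are relevant because Ace and Mme products also degrade bradykinin. Bdkrb2, the gene of its constitutive receptor, gave -0.82 ± 0.35 without overlap between the groups (adjusted p = 0.208). Cpn1, the gene of the catalytic subunit of carboxypeptidase N, which trims kinins, gave -2.48 ± 0.83 (adjusted p = 0.153). Of 12 brush border peptidase genes 0 passed, with 3 under an unadjusted p of 0.05 (22.7% over all genes) and a median of 0.02. Within that list Dpep1, a dipeptidase gene, gave -1.73 ± 0.38 (adjusted p = 0.0641) and Dpp4, the gene of dipeptidyl peptidase 4, gave 1.06 ± 0.33 (adjusted p = 0.133). Both were free of overlap, in opposite directions. These genes, Bdkrb2 and Cpn1 included, were named after their values were seen.

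Of 20 tested vacuolar ATPase genes, 0 passed, 14 had negative estimates, and 3 were under an unadjusted p of 0.05 (22.7% over all genes), with a median of -0.35. The subunit genes of intercalated cells, Atp6v1g3 and Atp6v1b1, gave -4.76 ± 1.35 (adjusted p = 0.114) and -3.59 ± 1.24 (adjusted p = 0.159). Colistin array 1 was far lowest for both, at -5.88 and -3.89, against -0.77 to 1.07 and 0.46 to 2.38 on the other colistin arrays. Atp6v0d2, another subunit gene, had the smallest adjusted p of the list (-2.74 ± 0.73, adjusted p = 0.0995), with overlap between the groups. Atp6ap2 had the estimate near 0 given above. Of 13 genes of type 1 receptor coupling, 0 passed, 3 were under an unadjusted p of 0.05 (22.7% over all genes) and the median was -0.29. The groups did not overlap in 2 of the 13, Agtr1a, lower, and Arrb2, higher after colistin. Arrb2, the gene of a beta-arrestin that binds activated receptors, gave 2.35 ± 0.78 (adjusted p = 0.15). Rgs5, a regulator of G protein signalling found in pericytes, gave -4.17 ± 1.01 (adjusted p = 0.0832) with overlap between the groups, and was well above background on 2 of 4 colistin arrays. Atp6v1g3, Atp6v1b1, Atp6v0d2, Arrb2 and Rgs5 were also named after their values were seen.

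For each member, the 2 other genes with the most similar profile were found by the root mean square difference of log2 values over the 8 arrays, each profile centred on its own mean. Agtr1a was closest to Proc and to Pdgfra, at 0.35 and 0.356 log2 units. Agt was closest to Tf and Cltb (0.46 and 0.658), Ace to Pcgf6 and Ppp1r35 (0.674 and 0.687), and Mme to Mcm3ap and Enoph1 (0.415 and 0.453). Enpep was closest to Cnnm3 and Mrps33 (0.268 and 0.27), and Atp6ap2 to Emc2 and Dnajc12 (0.282 and 0.307). None of these 12 genes passed the test. Between members the distances ran from 1.26 for Mme and Enpep to 2.65 for Ace and Atp6ap2.

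The plot of alternatives shows how far each member estimate depends on single arrays and on the processing. Of the single arrays, saline array 4 moved the estimates of Ace and Mme most when left out. For Mme, saline array 1 moved the estimate nearly as far the other way (from 1.33 to 0.25, against 2.43 without saline array 4). Saline array 4 also had the lowest share of spots well above background, at 69.33%, against 72.4% to 83.93% on the other arrays. Agtr1a stayed below 0 in all 19 alternatives.

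**Figure D4:**
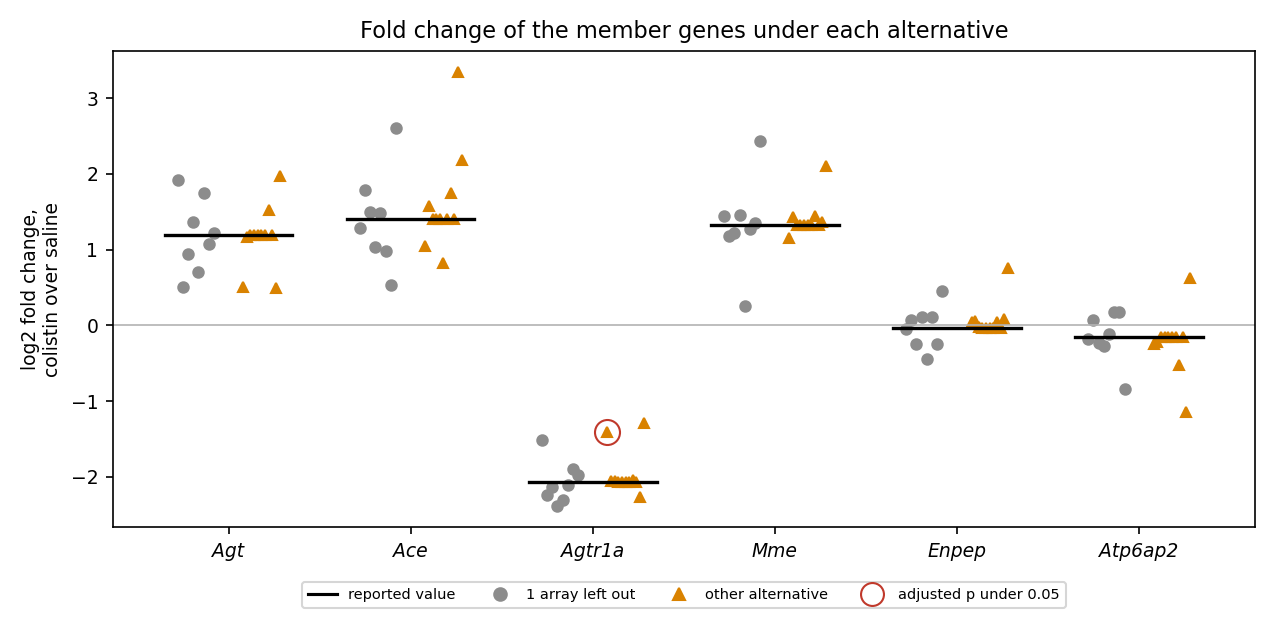
Log2 fold change of colistin over saline for each member under the reported setting (line), with 1 array left out (circles) and under each other alternative (triangles). The ring marks the one value with adjusted p under 0.05, Agtr1a at -1.41 with normexp.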

How the data were processed

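Total RNA of 8 samples labelled rat kidney was measured on 1-colour arrays. The spot intensity values were deposited by the authors as scanner tables, and the submitters' processing notes name Agilent Feature Extraction 10.5. Per the file headers, background subtraction and spatial detrending were run within each array to give the processed signal intensity. The table of log2 values deposited by the authors follows the same signals (r of at least 0.99977 between differences), scaled to the 75th percentile and centred per probe on its median, which no label states. Spot-type codes and flags are other values, used as deposited.

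Outlier spots were left out (257 to 461 per array), spots of a probe averaged, and log2 signal set relative to the 75th percentile. A probe was kept if 3 or more of the 4 arrays in 1 group read it well above background, and the brightest named probe stood for a gene. RefSeq accessions named 18643 of 30367 probes through the GRCr8 gene table, used for names alone because the array design used rn4. Groups were compared across all genes with limma 3.58.1 in R 4.3.3, two-sided with Benjamini-Hochberg adjustment, and the fit was tested on simulated data. The files hold no mean signal, so normexp (offset 50) used the median signal. Members and lists were chosen with earlier results of these data known. Genes were named by rule: every member, pathway receptors and enzymes fixed by name, list genes that passed, and the 2 closest profiles. Other list genes were named after their values were seen, as said beside them. The arrays lay on 3 slides, each with both groups, and no scan time was shared between slides. A few list genes are not reported here, and counts over lists leave them out.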

Additional observations from a re-analysis of the deposited data

How the results depend on the processing

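In 19 alternatives, 0 members were called except with normexp, where 1 was (Agtr1a at -1.41). Over all genes 248 were called, against 3377 with normexp, 40 with slide as a block, 143 without saline arrays 1 and 4, 1040 with no scaling between arrays (added after the data were seen), and 78 to 255 with 1 array left out, the lowest without colistin array 4. The replicate block left 5 calls and no member. Deviations of same-numbered arrays correlated from -0.02 to 0.013. No label says whether a shared number pairs samples, and correlations over all genes cannot decide it, because a small shared effect could go unseen. Leaving out saline arrays 1 and 4 was taken from an earlier analysis of these data. Pathway list calls numbered 4 of 17 with normexp (Agtr1a, Klk1, Mcpt1 and Mrgprd), all lower, where 21.7% of all genes were called lower. Of these, Mcpt1 and Mrgprd were dim, with unscaled processed signals of 10.8 to 25 and 16.1 to 29.6. Pathway list calls numbered 1 with the array median (Klk1), 1 over probes bright on all arrays (Klk1) and 1 with no scaling (Thop1). With 1 array left out they numbered 0 to 1. The list's median was -0.03, -0.17 to 0.32 with 1 array left out, and 0.76 with no scaling, where the median of all genes was 0.64 (-0.34 with normexp, -0.32 with no filter).

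Agtr1a, Agt, Ace and Mme kept their sign in all 19. Enpep turned to 0.04 with normexp, 0.06 with quantile normalization, 0.05 with the slide block, 0.08 without saline arrays 1 and 4 and 0.76 with no scaling, and ran from -0.44 to 0.46 with 1 array left out. Atp6ap2 turned to 0.63 with no scaling and ran from -0.84 to 0.18 with 1 array left out. Agtrap turned to 0.20 with no scaling. Anpep turned to 0.05 with the slide block, 0.25 without saline arrays 1 and 4 and 0.50 with no scaling (-0.64 to 0.32 with 1 left out). Removing the scaling raised the median of all genes to 0.64, against -0.14 as reported, and the turns under no scaling follow from that shift. The cause of the other changes was not tested.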
